A study of Mus musculus with 9 samples.

Results

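Glucocorticoids are steroid hormones of the adrenal gland (corticosterone in the mouse) that cross the cell membrane and bind the glucocorticoid receptor, a transcription factor held in the cytoplasm by an Hsp90 chaperone complex. The bound receptor moves to the nucleus and raises or lowers transcription of its target genes, often from a palindromic DNA element called the glucocorticoid response element. In brain, many of the induced genes are strongest in glia and blood vessel cells, and the proteins encoded by several of them act back on the receptor or on stress kinases and metabolism.

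The 10 genes described here, Fkbp5, Tsc22d3, Sgk1, Map3k6, Errfi1, Klf9, Klf15, Zbtb16, Arrdc2 and Txnip, are known targets of the glucocorticoid receptor and were taken as a list by name from the 21853 protein-coding genes measured. All 10 passed the filter on low values (3 or more libraries at 10 or above), as did 15411 genes in all. They were listed because of how they differed among the 3 groups, so their differences are given below as a description, without p-values. Calls of these 10 genes in limma are given as description too, and nothing is read from them.

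Poly(A) RNA of brain tissue was sequenced in 9 libraries, 3 per group. The HD-WNT5B group came from N171-82Q mice, a transgenic model of Huntington's disease that expresses an N-terminal fragment of mutant huntingtin, given the virus pAAV-GFAP(pro)-WNT5B-P2A-mCherry. The HD-Control group came from N171-82Q mice given pAAV-GFAP(pro)-Control-mCherry, and the WT-Control group from wild-type mice given that same control virus. All animals thus received an adeno-associated virus whose cargo is driven by GFAP, an astrocyte promoter, and the series text places the injection of the WNT5B virus in the striatum. The labels give no sex, age, hormone level or time of collection and do not say which animal gave which library, so p-values measure the spread between these libraries, which may be technical.

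The summed value per library (M, mega) was 79.88 to 83.75 M in HD-WNT5B, 55.63 to 55.8 M in HD-Control and 54.57 to 54.74 M in WT-Control libraries. Genes above 0 numbered 14291 to 14588 in HD-WNT5B, 17223 to 17349 in HD-Control and 17027 to 17132 in WT-Control libraries, and the value of 1 read implied depths of 37.25 to 52.16 M, 69.78 to 90.64 M and 67.76 to 77.77 M reads in those groups. The median SD of log2 values among replicates, over 13081 genes with a mean of at least 100, was 0.233 in HD-WNT5B, 0.0333 in HD-Control and 0.0393 in WT-Control libraries. The HD-WNT5B libraries therefore stood apart from the other 6 in total, depth and scatter, and since they are also the whole of that group, these features and the WNT5B virus cannot be told apart. Mouse Wnt5b was at 184.2, 22.5 and 212.3 in HD-WNT5B, 63.8, 44.2 and 49.3 in HD-Control and 74.6, 63.8 and 57.7 in WT-Control libraries. Library 2 of HD-WNT5B lay below all 6 controls, and the species and sequence of the viral WNT5B are not given, so these values do not check the labels.

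The promoters of 9 of the 10 genes were read from RefSeq (GRCm38.p6) in windows of 250 bases before to 50 bases after each annotated start, 17 windows in all, and Zbtb16 had none. Motifs were searched only in the 250 bases before each start, in these and in all other windows, and not in the 50 bases after it. Sgk1 held the full palindromic element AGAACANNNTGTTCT at chr10:21993701-21993715, 189 to 175 bases before one of its 6 starts. That element, searched on both strands, was in 3 of 32851 windows (0.00913%), those of Sgk1, Acnat2 and Gm35041. Its inner core ACANNNTGT was in 4 of the 17 windows, at Map3k6, Sgk1 and Txnip, and in 5.84% of all windows. The single arm AGAACA of the element was in 4 of the 17, at Sgk1 and Tsc22d3, and in 16.1% of all windows. In Sgk1 some matches of the core and the arm lie within the palindrome, and others lie elsewhere in that window or at other starts. The 3 stretches that follow, written 5′ to 3′ on the strand of the gene, are shown because they hold the best match for the receptor's element in Sgk1, the core in Map3k6 and the single arm in Tsc22d3, with the match in capitals. They lie at chr10:21993661-21993755 (plus strand), chr4:133240609-133240677 (plus strand) and chrX:140600672-140600737 (minus strand).
Sgk1: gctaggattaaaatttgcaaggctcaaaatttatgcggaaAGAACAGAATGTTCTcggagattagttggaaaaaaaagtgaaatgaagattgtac
Map3k6: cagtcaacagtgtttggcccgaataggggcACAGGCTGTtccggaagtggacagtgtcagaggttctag
Tsc22d3: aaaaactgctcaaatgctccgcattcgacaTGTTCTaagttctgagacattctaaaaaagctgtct

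Other motifs were searched in the same windows and are given with the share of all 27025 genes with a window that hold them. The E-box CACGTG was in Fkbp5, Klf15 and Sgk1 (6.86%), and the cAMP response element TGACGTCA in Errfi1 (1.77%). The FoxO site TGTTTAC was in Klf9 and Txnip (3.54%), and the CCAAT box in 7 of the 9 genes (37.5%). Klf15 and Fkbp5 are shown with their E-boxes in capitals, since the E-box is the element of the circadian clock, with which glucocorticoid release is timed. They lie at chr6:90462326-90462439 (plus strand) and chr17:28486283-28486348 (minus strand), and Klf15 holds the motif at 2 places. A match in these windows is a description of letters and not of binding.
Klf15: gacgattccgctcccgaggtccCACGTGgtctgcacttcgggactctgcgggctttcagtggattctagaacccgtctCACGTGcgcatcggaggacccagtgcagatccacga
Fkbp5: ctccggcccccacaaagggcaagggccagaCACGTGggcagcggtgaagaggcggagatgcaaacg

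In HD-Control libraries all 10 genes were higher than in WT-Control libraries, by 1.78-fold (Klf9) to 10.1-fold (Map3k6) in the ratio of means. In HD-WNT5B libraries they divided into those that were higher still than in HD-Control (Tsc22d3, Arrdc2 and Fkbp5) and those that were lower (Txnip, Sgk1, Klf15, Map3k6, Klf9, Errfi1 and Zbtb16). Among the lower 7, the HD-WNT5B mean stayed above that of WT-Control for Map3k6, Zbtb16, Sgk1 and Klf15 and lay below it for Errfi1, Klf9 and Txnip. With all libraries brought to an equal total, the log2 difference from WT-Control was below 0 for Zbtb16, Sgk1 and Klf15 too, at -0.03, -0.13 and -0.48. Both comparisons share the HD-Control libraries, so a high value there enters both with opposite signs. The plot of the values by library shows the 10 genes together.

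**Figure D1:**
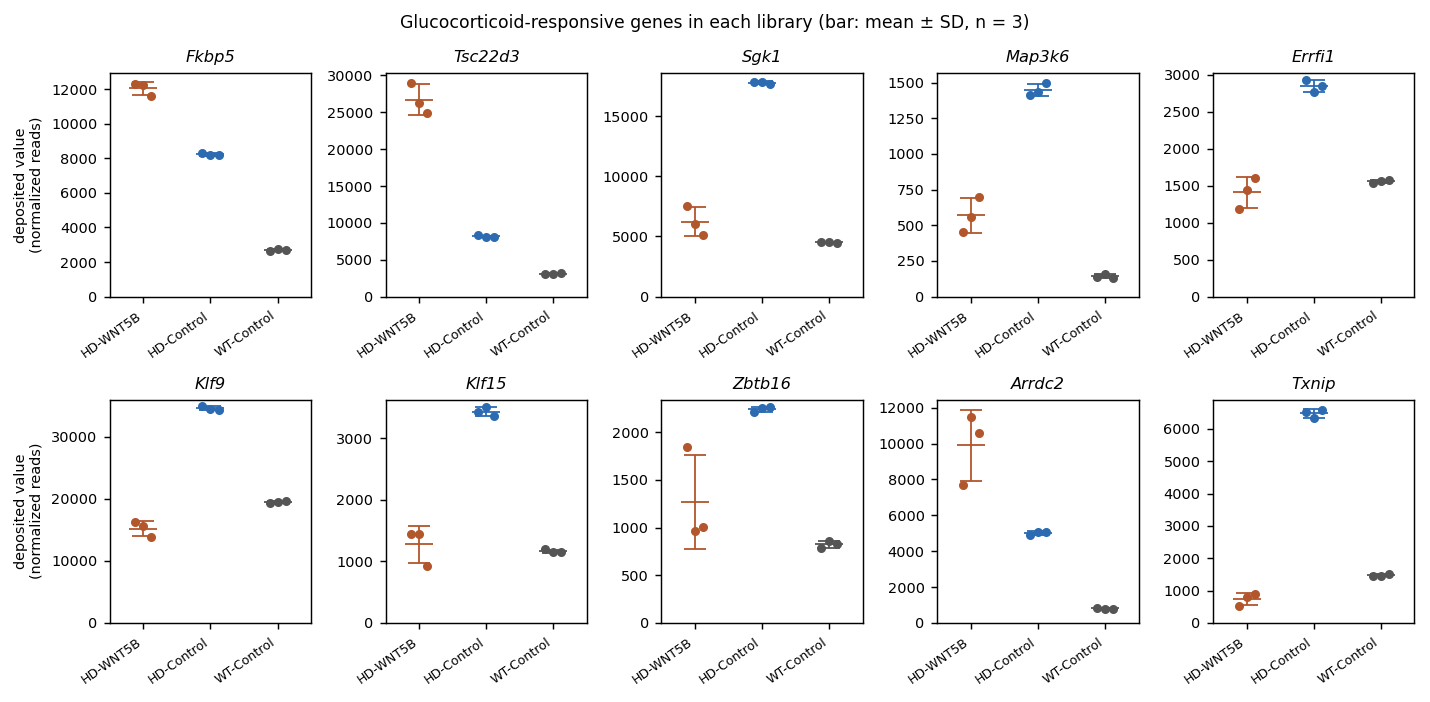
Deposited value (normalized reads, linear axis from 0) of each of the 10 genes in each library, with HD-WNT5B left, HD-Control in the middle and WT-Control right; points are libraries and bars the mean ± SD (n = 3). Fkbp5, Tsc22d3 and Arrdc2 are highest in HD-WNT5B libraries, the other 7 genes are highest in HD-Control libraries, and WT-Control is lowest for 7 of the 10.

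Fkbp5 and Tsc22d3 encode proteins that hold back the response. Fkbp5 encodes FKBP51, a co-chaperone of the Hsp90 complex that lowers the affinity of the receptor for hormone and so closes a negative feedback loop. Fkbp5 (ENSMUSG00000024222.17, chr17:28399094-28517527 in mm10, minus strand) was at 12309.6, 12220.3 and 11601.2 in HD-WNT5B, 8311.2, 8207.8 and 8165.8 in HD-Control and 2662.4, 2761.9 and 2670.2 in WT-Control libraries. No group overlapped another, and HD-WNT5B was the highest. The HD-Control mean was 3.05-fold that of WT-Control (log2 1.61, SE 0.04), and the HD-WNT5B mean 1.46-fold that of HD-Control (log2 0.55, SE 0.04). With all libraries brought to an equal total, the second difference was -0.01, so its direction rests on the scale of the libraries.

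Tsc22d3 encodes GILZ, a leucine zipper protein that binds and inhibits NF-kappaB and AP-1 and mediates anti-inflammatory effects of the hormone. Tsc22d3 (ENSMUSG00000031431.13, chrX:140539528-140600659, minus strand) was at 28996, 26215.6 and 24883.6 in HD-WNT5B, 8297.7, 8137.7 and 8092.0 in HD-Control and 3128.3, 3094.6 and 3177.4 in WT-Control libraries. All 3 HD-WNT5B libraries were far above the other 6, and again no groups overlapped. On average, HD-Control was 2.61-fold WT-Control (log2 1.38, SE 0.05) and the HD-WNT5B mean 3.27-fold that of HD-Control (log2 1.70, SE 0.05). At equal totals the second log2 difference was 1.15, the largest of the 10 in the upward direction under that scale too.

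Sgk1, Map3k6 and Errfi1 act on kinase signalling. Sgk1 encodes serum- and glucocorticoid-regulated kinase 1, which phosphorylates ion channel regulators and FoxO factors downstream of PI3K. Sgk1 (ENSMUSG00000019970.15, chr10:21882184-21999903, plus strand) was at 7517.8, 6041.1 and 5110.1 in HD-WNT5B, 17864.5, 17843.8 and 17668.2 in HD-Control and 4528.1, 4551.5 and 4445.0 in WT-Control libraries. HD-Control libraries lay within 1.01-fold of each other and far above both other groups, and HD-WNT5B spread 1.47-fold between its lowest and highest library without reaching WT-Control. In the ratio of means, HD-Control was 3.95-fold WT-Control (log2 1.98, SE 0.12), the HD-WNT5B mean 0.350-fold that of HD-Control (log2 -1.53, SE 0.12), and the HD-WNT5B mean 1.38-fold that of WT-Control (log2 0.45, which was -0.13 at equal totals).

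Map3k6 encodes ASK2, a stress-activated kinase that works in complex with ASK1. Map3k6 (ENSMUSG00000028862.6, chr4:133240818-133252929, plus strand) was at 450.7, 559.0 and 696.9 in HD-WNT5B, 1416.7, 1436.4 and 1497.8 in HD-Control and 139.3, 159.1 and 133.5 in WT-Control libraries. It was the lowest of the 10 per kb of transcript in every group, at means of 131, 335 and 33.2 per kb, and had the largest fold between HD-Control and WT-Control at 10.1-fold (log2 3.31, SE 0.17). The HD-WNT5B mean was 0.392-fold that of HD-Control (log2 -1.37, SE 0.17) and still 3.95-fold that of WT-Control (log2 1.94).

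Errfi1 encodes MIG6, an inhibitor of the EGF receptor family. Errfi1 (ENSMUSG00000028967.10, chr4:150853919-150868892, plus strand) was at 1189.5, 1444.0 and 1599.7 in HD-WNT5B, 2932.2, 2769.6 and 2845.5 in HD-Control and 1534.2, 1568.3 and 1577.0 in WT-Control libraries. HD-Control lay above both other groups, whereas HD-WNT5B libraries lay on either side of the WT-Control range. The HD-Control mean was 1.83-fold that of WT-Control (log2 0.87, SE 0.10) and the HD-WNT5B mean 0.495-fold that of HD-Control (log2 -1.02, SE 0.10).

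Klf9, Klf15 and Zbtb16 encode zinc finger transcription factors. KLF9 is a repressor that is induced by glucocorticoid and thyroid hormone in neurons. Klf9 (ENSMUSG00000033863.2, chr19:23141226-23168134, plus strand) was at 16225, 15572.6 and 13799.2 in HD-WNT5B, 34922.2, 34436.3 and 34370.5 in HD-Control and 19304, 19415 and 19695.1 in WT-Control libraries. All 3 HD-WNT5B libraries lay below all 3 WT-Control libraries. On average, HD-Control was 1.78-fold WT-Control (log2 0.83, SE 0.05), the smallest of the 10, and the HD-WNT5B mean 0.440-fold that of HD-Control (log2 -1.19, SE 0.05). Against WT-Control the log2 difference of HD-WNT5B was -0.36, and 0.03 once the trend with transcript length described below was removed.

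KLF15 controls amino acid and glucose metabolism in liver and muscle and is a direct target of the receptor in many tissues. Klf15 (ENSMUSG00000030087.11, chr6:90462576-90475238, plus strand) was at 1448.8, 1440.8 and 930.7 in HD-WNT5B, 3427.3, 3497.4 and 3352.2 in HD-Control and 1192.9, 1148.4 and 1150.8 in WT-Control libraries. Libraries 1 and 2 of HD-WNT5B were above every WT-Control library and library 3 below them, so these groups overlapped, with a log2 difference of 0.10 (SE 0.16), which was below 0 at equal totals (-0.48) and without library 1 (-0.0072) or 2 (-0.0032) of HD-WNT5B. In the ratio of means, HD-Control was 2.94-fold WT-Control (log2 1.55, SE 0.16) and the HD-WNT5B mean 0.372-fold that of HD-Control (log2 -1.45, SE 0.16).

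Zbtb16 encodes PLZF, a transcriptional repressor of the BTB zinc finger family. Zbtb16 (ENSMUSG00000066687.5, chr9:48654297-48836222, minus strand) was at 1838.8, 958.9 and 1001.4 in HD-WNT5B, 2212.3, 2248.3 and 2261.9 in HD-Control and 788.9, 862.5 and 826.8 in WT-Control libraries. Library 1 of HD-WNT5B was 1.92-fold the lowest library of its group, the widest spread of the 10, and the groups did not overlap. The HD-Control mean was 2.71-fold that of WT-Control (log2 1.44, SE 0.22) and the HD-WNT5B mean 0.565-fold that of HD-Control (log2 -0.89, SE 0.22). With the length trend removed the second log2 difference was -0.40 and no longer called.

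Arrdc2 and Txnip belong to the alpha-arrestin family, whose members act as adaptors in protein trafficking and degradation. Arrdc2 (ENSMUSG00000002910.11, chr8:70835129-70839720, minus strand) was at 7678.7, 11465.4 and 10604.1 in HD-WNT5B, 4886.3, 5067.3 and 5069.8 in HD-Control and 850.2, 776.1 and 799.1 in WT-Control libraries. The 3 groups stood in 3 separate ranges with HD-WNT5B on top. On average, HD-Control was 6.19-fold WT-Control (log2 2.63, SE 0.13), the HD-WNT5B mean 1.98-fold that of HD-Control (log2 0.96, SE 0.13, and 0.41 at equal totals), and the HD-WNT5B mean 12.3-fold that of WT-Control, the largest of the 10.

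Txnip encodes thioredoxin-interacting protein, which binds thioredoxin and restrains glucose uptake, and it is also induced by glucose. Txnip (ENSMUSG00000038393.14, chr3:96557957-96561883, plus strand) was at 527.7, 804.7 and 904.9 in HD-WNT5B, 6521.4, 6334.8 and 6576.9 in HD-Control and 1445.6, 1463.3 and 1501.9 in WT-Control libraries. Every HD-WNT5B library was below every WT-Control library. In the ratio of means, HD-Control was 4.41-fold WT-Control (log2 2.14, SE 0.17), and the HD-WNT5B mean 0.115-fold that of HD-Control (log2 -3.15, SE 0.17) and 0.507-fold that of WT-Control (log2 -1.01). On the exons of Txnip, 19.4% of bases are shared with Gm15441 on the opposite strand, and the library kit does not keep strand, so reads there cannot be assigned. The other 9 genes share no exon bases with another gene.

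**Figure D2:**
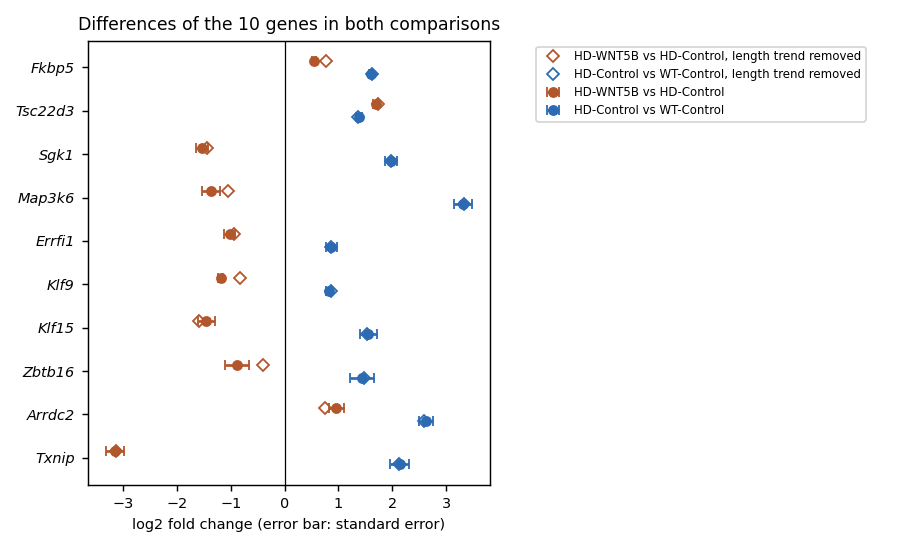
Log2 fold change of the 10 genes (horizontal axis, log2) in HD-WNT5B against HD-Control and in HD-Control against WT-Control, as filled points with bars of 1 standard error, and with the transcript length trend removed as open diamonds. All 10 lie right of 0 in HD-Control against WT-Control, from 0.83 (Klf9) to 3.31 (Map3k6), while 7 lie left of 0 in HD-WNT5B against HD-Control, with Txnip at -3.15.

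Per kb of the longest transcript, the order of the genes differed among groups. In HD-WNT5B it ran from Tsc22d3 (mean 9283 per kb) through Arrdc2 (4211), Klf9 (3388), Fkbp5 (3122) and Sgk1 (2010) to Klf15 (513), Errfi1 (464), Txnip (264), Zbtb16 (248) and Map3k6 (131). Library ranges overlapped there for Arrdc2 and Klf9, Klf9 and Fkbp5, Klf15 and Errfi1, and Txnip and Zbtb16, so the order within each of these pairs is not resolved. In HD-Control it ran from Klf9 (7708) through Sgk1 (5747), Tsc22d3 (2843), Txnip (2291), Fkbp5 (2133) and Arrdc2 (2126) to Klf15 (1380), Errfi1 (936), Zbtb16 (438) and Map3k6 (335), and Fkbp5 and Arrdc2 did not differ beyond the spread of their libraries. In WT-Control Klf9 (4340) also led, Sgk1 (1456) and Tsc22d3 (1090) came next, and Txnip (520) and Errfi1 (513) had overlapping ranges. Tsc22d3 thus ranked below Klf9 and Sgk1 in both control groups and above the other 9 genes in HD-WNT5B, and Txnip ranked above Fkbp5 in HD-Control and below Errfi1 in HD-WNT5B.

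Replicates of the 10 genes scattered more in HD-WNT5B libraries, with coefficients of variation of 3.2 to 39.2%, than in HD-Control (0.606 to 2.92%) or WT-Control libraries (1.04 to 9.3%). Fkbp5 was the tightest of the 10 in HD-WNT5B and Zbtb16 the loosest. One spread per gene was estimated over all 9 libraries, which is why the SE of a gene is the same in each comparison. The scatter of HD-WNT5B libraries thus enters HD-Control against WT-Control too, where SE and p-values do not measure the spread of the compared libraries alone. With only the 2 groups compared fitted, 12858 genes were called there in place of 6957.

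In HD-Control against WT-Control, 10 of the 10 genes passed the threshold in limma (adjusted p < 0.05, Benjamini-Hochberg, over the 15411 genes), all higher, where 45.1% of all genes passed, 24.5% higher and 20.7% lower. In HD-WNT5B against HD-Control, 3 passed higher and 7 lower, where 77.5% of all genes passed, 35.8% higher and 41.7% lower. In HD-WNT5B against WT-Control, 6 passed higher and 2 lower, where 77.9% of all genes passed, 35.9% higher and 42.1% lower, and Klf15 and Errfi1 did not pass. At equal totals 4 passed higher and 4 lower in that comparison, and with the length trend described below removed 6 passed higher and 1 lower. Zbtb16 lost the call against WT-Control with upper-quartile or trimmed-mean factors, without a filter, with a replicate block, with only these groups fitted and when any 1 of the 6 control libraries was left out, and it was at -0.03 at equal totals. Groups did not overlap for 10 of the 10 genes in the first 2 comparisons, where that held for 84.0% (43.6% higher and 40.4% lower) and 78.7% of all genes (36.2% and 42.5%), and for 8 of the 10 in the last, where it held for 79.4% (36.2% and 43.2%). The list was chosen on these differences, so nothing is read from these counts. The median log2 difference of the 10 was 1.58 in HD-Control against WT-Control (all genes 0.02) and -1.11 in HD-WNT5B against HD-Control (all genes -0.23).

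The differences in HD-WNT5B moved with transcript length and with the scale of the libraries. In HD-WNT5B against HD-Control the median log2 difference was 1.06 in the bin with the shortest transcripts, of 5 bins with near equal numbers of genes, and -1.03 in the bin with the longest, against 0.07 and -0.01 in HD-Control against WT-Control. Tsc22d3, Klf15, Arrdc2 and Txnip are in the bin of 1988 to 2928 bases, whose median was 0.11, Fkbp5, Sgk1 and Errfi1 in that of 2929 to 3907 bases at -0.28, and Klf9, Map3k6 and Zbtb16 in that of 3908 to 5273 bases at -0.55. Genes of similar length thus lay on both sides of 0, as Tsc22d3 (2876 bases, log2 1.70) and Txnip (2827 bases, log2 -3.15) did. With the length trend removed, 3 of the 10 were called higher and 6 lower, beside 5650 higher and 5899 lower of the 15411 genes. Bringing all libraries to an equal total moved the median of all genes by -0.53 and left 2 called higher (Tsc22d3 and Arrdc2) and 7 lower, beside 3987 higher and 8460 lower of the 15411 genes, with 32.03% in place of 46.19% of all called genes higher. The part of these features in the differences was not tested.

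**Figure D3:**
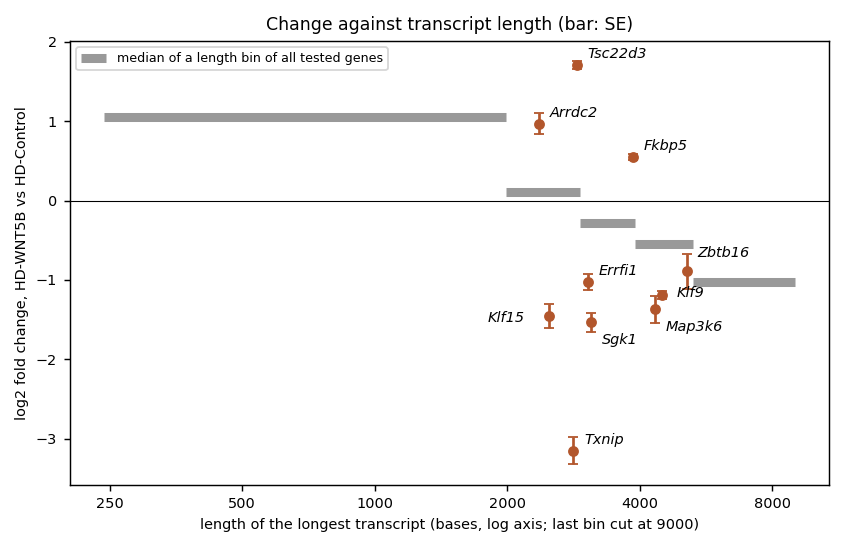
Log2 fold change of the 10 genes in HD-WNT5B against HD-Control (vertical axis, bars of 1 SE) against the length of their longest transcript (horizontal log axis, bases); grey bars mark the median of each of 5 length bins of all genes tested. The medians fall from 1.06 to -1.03 with length, and the 10 genes lie between 2355 and 5114 bases on both sides of them.

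Brain cell types were followed with lists of 10 markers each, and in bulk tissue fewer cells of a type and less RNA per cell cannot be told apart. In HD-Control against WT-Control, 8 of 10 astrocyte, 9 of 10 oligodendrocyte, 10 of 10 microglia, 6 of 10 endothelial and mural, 7 of 10 striatal neuron and 9 of 10 cortical neuron markers fell, and 1 astrocyte and 3 striatal markers rose. Of the choroid plexus and meninges list 2 of 10 fell, and of the blood list 5 of the 7 tested fell and 1 rose. Among all genes 20.7% fell and 24.5% rose in this comparison. The summed astrocyte markers were 188544 to 205240 in HD-WNT5B, 232331 to 233508 in HD-Control and 356013 to 359145 in WT-Control libraries, and the endothelial and mural sums were 45444.1 to 53338, 17128.7 to 17280.4 and 25546.9 to 26022.9 in those groups. Oligodendrocyte markers summed to 839417 to 888601, 363119 to 365580 and 496826 to 501830, and microglia markers to 41504.9 to 47025.5, 11426 to 11508.3 and 30559.1 to 30897.4 in the same order of groups. The 10 genes were thus higher in HD-Control than in WT-Control while the sums of all 4 of these glial and vascular lists were lower.

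Striatal neuron markers summed to 360248 to 373327 in HD-WNT5B, 453023 to 457621 in HD-Control and 515202 to 516034 in WT-Control libraries, and cortical neuron markers to 350013 to 377873, 43488.6 to 44967.5 and 86210.8 to 89409.2. Choroid plexus and meninges markers summed to 13704.7 to 15870.7, 2490.57 to 2538.9 and 2906.68 to 3003.03, and blood cell markers to 11377.7 to 13960, 1403.23 to 1518.74 and 3477.43 to 3559.72. Lum, Cd3e and Ly6g were at 0 in all HD-WNT5B libraries, and Ly6g was also at 0 in all WT-Control libraries. In HD-WNT5B against HD-Control, markers that rose and fell numbered 3 and 5 of 10 for astrocytes, 7 and 3 for oligodendrocytes, 6 with no fall called for microglia, 5 and 4 for endothelial and mural cells, 3 and 5 for striatal neurons, 3 and 3 for cortical neurons, 3 and 2 for choroid plexus and meninges, and 5 and 1 of the 7 tested for blood. Among all genes 35.8% rose and 41.7% fell in that comparison. The sums of the vascular, oligodendrocyte, microglia, cortical, choroid and blood lists moved with the HD-WNT5B group, as did Tsc22d3, Arrdc2 and Fkbp5, and their part in those differences was not tested.

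Of 7 tested genes for the receptors of corticosterone and for enzymes and pumps of steroid handling, 1 passed in HD-Control against WT-Control. In HD-WNT5B against HD-Control 3 passed, and all of these differences were lower. Among all genes 45.1% and 77.5% passed in those comparisons, 20.7% and 41.7% lower. Nr3c1, the glucocorticoid receptor itself, was at 3992.3, 3564.3 and 2794.2 in HD-WNT5B, 5636.5, 5567.2 and 5690.4 in HD-Control and 6913.9, 6639.1 and 7016.8 in WT-Control libraries. Every HD-Control library was below every WT-Control library and above every HD-WNT5B library. The log2 difference between HD-Control and WT-Control was -0.28 (SE 0.11, limma with Benjamini-Hochberg adjusted p = 0.0689), which did not pass, though it passed with an adjusted p of 4.5e-09 when each group had its own weight. That setting called 12779 of all genes in place of 6957. Against HD-Control, Nr3c1 fell by 0.72 in HD-WNT5B (SE 0.11, limma with Benjamini-Hochberg adjusted p = 3.2e-04), a call lost at -0.03 once the length trend was removed.

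Nr3c2, the mineralocorticoid receptor, which binds corticosterone with higher affinity, was at 881.8, 811.2 and 371.0 in HD-WNT5B, 4585.7, 4650.7 and 4499.7 in HD-Control and 3160.7, 3114.8 and 3183.3 in WT-Control libraries. HD-WNT5B libraries were far below both other groups (log2 -2.83 against HD-Control, SE 0.28, limma with Benjamini-Hochberg adjusted p = 1.7e-05), and HD-Control against WT-Control did not pass (log2 0.54, adjusted p = 0.156 in limma). Every HD-Control library was nonetheless above every WT-Control library, and that difference was called in 3 of the settings run, left-out libraries included. Hsd11b1, the enzyme that regenerates corticosterone inside cells, averaged 240.3 ± 105.0 in HD-WNT5B, 278.2 ± 18.8 in HD-Control and 352.7 ± 5.19 in WT-Control libraries (SD, n = 3 each) and passed in neither comparison (limma adjusted p = 0.368 and 0.382). Abcb1a encodes a drug pump that exports some corticosteroids at the blood-brain barrier. It averaged 331.8 ± 63.8 in HD-WNT5B, 1781.9 ± 25.9 in HD-Control and 2415.3 ± 28.9 in WT-Control libraries (SD, n = 3 each). Abcb1a fell in both steps, by 2.43 on the log2 scale in HD-WNT5B against HD-Control (SE 0.12, limma with Benjamini-Hochberg adjusted p = 1.9e-07) and by 0.44 in HD-Control against WT-Control (SE 0.12, limma adjusted p = 0.0193, kept in 3 of 9 fits that left out 1 library).

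**Figure D4:**
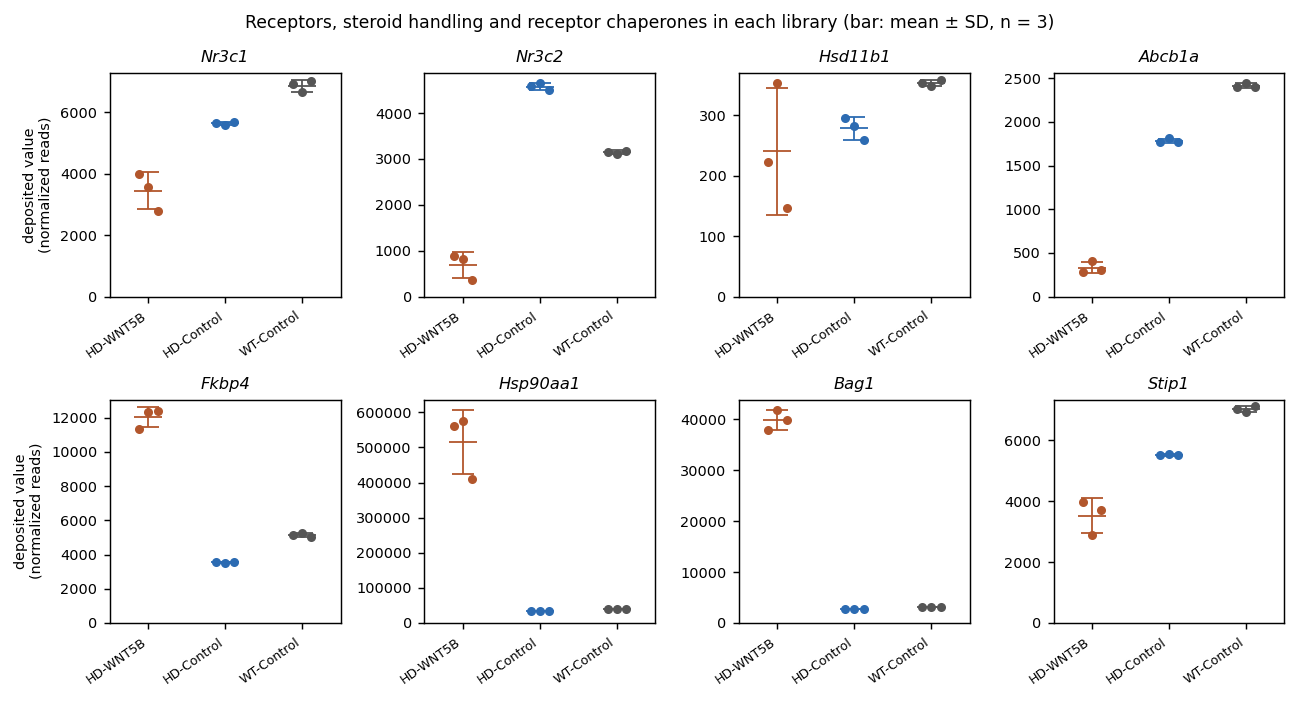
Deposited value (normalized reads, linear axis from 0) of the receptors Nr3c1 and Nr3c2, the steroid handling genes Hsd11b1 and Abcb1a and the chaperones Fkbp4, Hsp90aa1, Bag1 and Stip1 in each library, HD-WNT5B left and WT-Control right; bars are the mean ± SD (n = 3). Nr3c1 and Abcb1a are lowest in HD-WNT5B, and Fkbp4, Hsp90aa1 and Bag1 are highest there.

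Genes for the chaperones that hold the receptor were called in both directions. Of 13 such genes, 2 rose and 7 fell in HD-Control against WT-Control, and 7 rose and 5 fell in HD-WNT5B against HD-Control. All genes were also called in both directions, 24.5% higher and 20.7% lower in the first comparison and 35.8% and 41.7% in the second. Fkbp4 encodes FKBP52, which takes the place of FKBP51 when the receptor binds hormone. Fkbp4 averaged 12027 ± 577 in HD-WNT5B, 3538.4 ± 43.6 in HD-Control and 5139.8 ± 115 in WT-Control libraries (SD, n = 3 each). It fell by 0.54 in HD-Control against WT-Control (SE 0.04, limma with Benjamini-Hochberg adjusted p = 2.2e-05), where Fkbp5 was higher, and rose by 1.76 in HD-WNT5B against HD-Control (SE 0.04, limma adjusted p = 1.8e-09).

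Hsp90aa1, the inducible Hsp90, averaged 515470 ± 92450 in HD-WNT5B, 34641 ± 98.9 in HD-Control and 40503 ± 279 in WT-Control libraries (SD, n = 3 each), a rise of 3.88 against HD-Control (SE 0.11, limma with Benjamini-Hochberg adjusted p = 5.8e-09). Bag1, a co-chaperone that inhibits the receptor, rose by 3.89 in HD-WNT5B against HD-Control and the p23 gene Ptges3 by 1.60 (limma adjusted p = 2.6e-11 and 4.5e-09). Hspa4 fell by 0.74 in HD-Control against WT-Control and rose by 0.40 in HD-WNT5B against HD-Control (limma adjusted p = 3.5e-06 and 2.2e-05), with the second at -0.16 at equal totals. Hspa8, the constitutive Hsc70, fell by 0.28 in the first comparison and rose by 1.14 in the second, and Dnajb1, its Hsp40 partner, rose by 0.37 and by 0.87 (all 4 called in limma).

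Of 12 coregulators of nuclear receptors, 6 rose and 2 fell in HD-Control against WT-Control, and 4 rose and 7 fell in HD-WNT5B against HD-Control. Shares of all genes that rose and fell were 24.5% and 20.7% in the first comparison and 35.8% and 41.7% in the second. Gmeb2 and Gmeb1, glucocorticoid modulatory element binding proteins, rose by 0.72 and 0.59 in HD-Control against WT-Control (SE 0.09 and 0.07, limma adjusted p = 2.1e-04 and 2.8e-04). Gmeb2 fell by 2.07 in HD-WNT5B against HD-Control (limma adjusted p = 5e-08), and Gmeb1 fell by 0.68, a call that was lost at 0.03 with the length trend removed. Nrip1, the corepressor RIP140, rose by 0.49 and fell by 1.39 in those comparisons, Smarca4, the BRG1 ATPase of chromatin remodelling, fell by 0.64 and rose by 0.87, and the coactivator Ncoa2 fell by 2.45 in HD-WNT5B against HD-Control (limma adjusted p up to 0.00117 for these 5 differences).

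A list of 36 other genes known to be induced by glucocorticoids in brain or other tissues was set beside the 10. In HD-Control against WT-Control, 26 of the 36 rose, 6 fell and 4 did not pass, with a median log2 difference of 1.12 (all genes 0.02), where 24.5% of all genes rose. In HD-WNT5B against HD-Control, 11 rose, 20 fell and 5 did not pass, with a median of -0.30 (all genes -0.23), where 35.8% of all genes rose and 41.7% fell. In HD-WNT5B against WT-Control, 23 rose and 11 fell, with a median of 0.79 (all genes -0.24), and 17 rose and 15 fell at equal totals. Mt2, a metallothionein chosen here after its values were seen, rose by 2.10 in HD-WNT5B against HD-Control (limma adjusted p = 5.8e-08) but was called lower, at -0.16, with the length trend removed, and 73.5% of its exon bases are shared with Gm45774 on the opposite strand. The list was drawn up with earlier results of these libraries known and is no independent evidence of a direction.

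Plin4, a lipid droplet coat protein, averaged 7636.6 ± 608 in HD-WNT5B, 9027.4 ± 199 in HD-Control and 468.4 ± 27.7 in WT-Control libraries (SD, n = 3 each), a rise of 4.26 in HD-Control against WT-Control (SE 0.07, limma with Benjamini-Hochberg adjusted p = 1.4e-08). It fell by 0.24 in HD-WNT5B against HD-Control (SE 0.07, limma adjusted p = 0.0105) and rose by 0.36 with the length trend removed. Cdkn1a, the cell cycle inhibitor p21, averaged 7743.1 ± 939 in HD-WNT5B, 9140.8 ± 136 in HD-Control and 711.9 ± 46.1 in WT-Control libraries (SD, n = 3 each), a rise of 3.68 in HD-Control against WT-Control (SE 0.09, limma adjusted p = 7.2e-08). It fell by 0.25 in HD-WNT5B against HD-Control (limma adjusted p = 0.0281), a call kept in 4 of 9 fits that left out 1 library. At equal totals HD-WNT5B against HD-Control was at -0.80 for both genes, and HD-Control against WT-Control at 4.24 for Plin4 and 3.65 for Cdkn1a. On both scales these genes thus differed less between the groups of N171-82Q mice than HD-Control did from WT-Control.

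Per1, a clock gene with a known response element for the receptor, averaged 14186 ± 907 in HD-WNT5B, 20826 ± 246 in HD-Control and 7941.3 ± 329 in WT-Control libraries (SD, n = 3 each). It rose by 1.39 in HD-Control against WT-Control (SE 0.05, limma with Benjamini-Hochberg adjusted p = 6.1e-07) and fell by 0.56 in HD-WNT5B against HD-Control (SE 0.05, limma adjusted p = 9.8e-06). Sult1a1, a phenol sulfotransferase, rose in both steps, by 2.19 in HD-Control against WT-Control and by 3.08 in HD-WNT5B against HD-Control (limma adjusted p = 6.1e-07 and 2.9e-09), as did the metallothionein Mt1 by 1.38 and 2.18 (limma adjusted p = 3e-06 and 1.5e-08, the second at 0.85 with the length trend removed). The small GTPase gene Rhob rose by 0.22 and by 1.12 (limma adjusted p = 5.1e-04 and 3.9e-09), and the astrocyte gene Ndrg2 fell by 0.30 in HD-Control against WT-Control and rose by 1.55 in HD-WNT5B against HD-Control (limma adjusted p = 3e-04 and 2.1e-09).

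**Figure D5:**
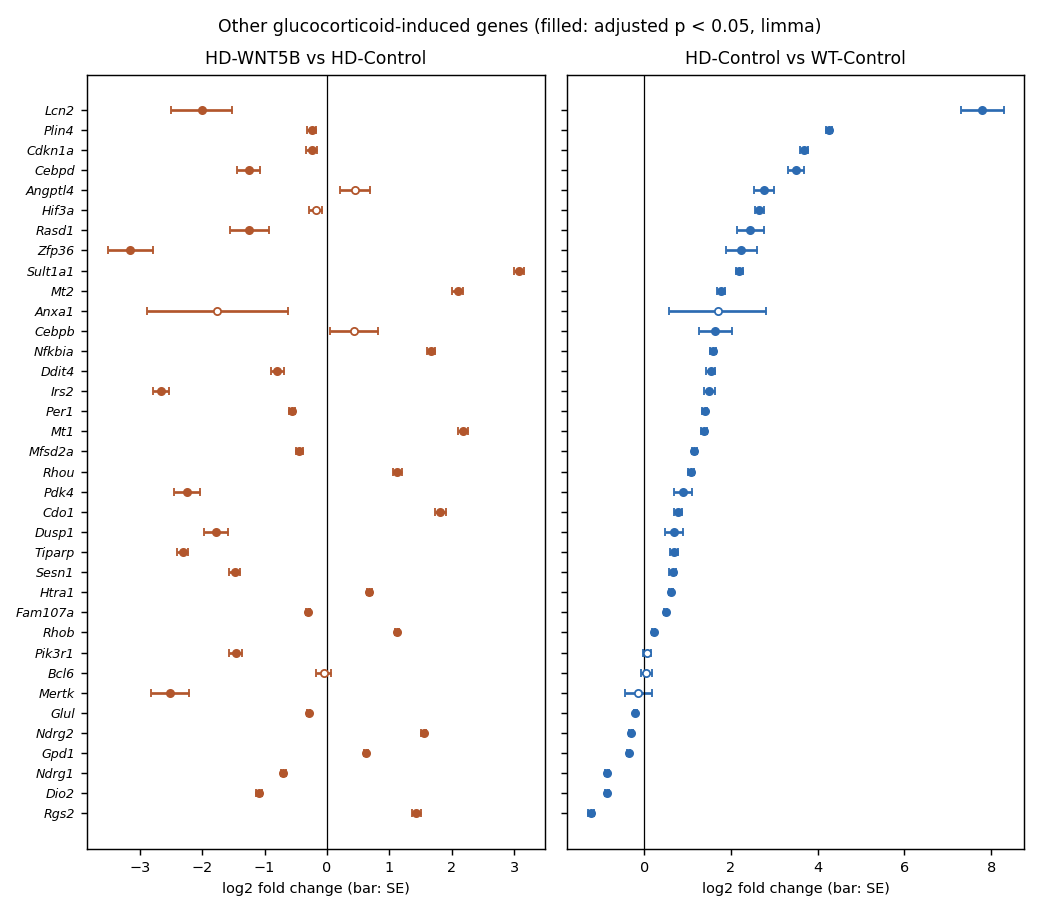
Log2 fold change (horizontal axis, bars of 1 SE) of 36 other glucocorticoid-induced genes in HD-WNT5B against HD-Control (left) and HD-Control against WT-Control (right), sorted by the right panel; filled points passed limma at adjusted p < 0.05. On the right 26 genes rose and 6 fell, and on the left 11 rose and 20 fell.

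Of 12 genes that the bound receptor is known to hold down, 10 were tested. In HD-Control against WT-Control 5 rose and 2 fell, and in HD-WNT5B against HD-Control 2 rose and 4 fell. Among all genes 24.5% rose and 20.7% fell in the first comparison, and 35.8% rose and 41.7% fell in the second. Crh, the hypothalamic hormone that starts the stress axis, averaged 223.7 ± 59.3 in HD-WNT5B, 11.7 ± 3.94 in HD-Control and 61.8 ± 10.2 in WT-Control libraries (SD, n = 3 each). It fell by 2.16 in HD-Control against WT-Control (SE 0.32, limma with Benjamini-Hochberg adjusted p = 7.1e-04) and rose by 3.95 in HD-WNT5B against HD-Control (SE 0.32, limma adjusted p = 4.3e-06). Pomc, the precursor of ACTH, rose by 3.02 in HD-WNT5B against HD-Control (SE 0.37, limma adjusted p = 6.6e-05) and did not pass in HD-Control against WT-Control (log2 -1.02, limma adjusted p = 0.0518).

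The other named genes of this list act in inflammation. Ccl2, a monocyte chemokine, was at 92.5, 56.0 and 60.3 in HD-Control and 0.704, 2.42 and 1.46 in WT-Control libraries and was listed at 0 in all 3 HD-WNT5B libraries. It rose in HD-Control against WT-Control (limma adjusted p = 2.3e-05), though its WT-Control values are near those of single reads. Mmp9, a matrix protease, and Icam1, an adhesion molecule, rose by 2.62 and 1.86 in HD-Control against WT-Control (SE 0.22 and 0.27, limma adjusted p = 3.4e-05 and 6e-04) and did not pass in HD-WNT5B against HD-Control (limma adjusted p = 0.258 and 0.867). Tnf rose by 2.07 in HD-Control against WT-Control (limma adjusted p = 0.00141) and was listed at 0 in all 3 HD-WNT5B libraries.

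Relatives of the 10 genes by family were called in both directions. Of 26 relatives, 10 rose, 5 fell and 11 did not pass in HD-Control against WT-Control, with a median log2 difference of -0.02 (all genes 0.02), and 11 rose and 13 fell in HD-WNT5B against HD-Control. For all genes, the shares that rose and fell were 24.5% and 20.7%, then 35.8% and 41.7%. Tsc22d4 rose in both steps, by 0.67 and 0.80 (limma adjusted p = 1.4e-04 and 1.1e-05), and Klf13 rose by 0.47 and fell by 0.94 (limma adjusted p = 1.8e-04 and 4.1e-07). The BTB zinc finger genes Zbtb7a and Zbtb20 fell by 0.41 and 0.42 in HD-Control against WT-Control and rose by 2.29 and 2.30 in HD-WNT5B against HD-Control (all 4 called in limma), with Zbtb16 the other way in both. The FK506-binding protein genes Fkbp2 and Fkbp3 rose by 4.07 and 1.66 in HD-WNT5B against HD-Control (limma adjusted p = 3.4e-10 and 1.5e-09). Sgk2 fell by 2.06 in HD-Control against WT-Control (limma adjusted p = 2.4e-04), where Sgk1 was higher, and was listed at 0 in all HD-WNT5B libraries.

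Of 18 substrates and regulators next to Sgk1, Txnip and Errfi1, 3 rose and 5 fell in HD-Control against WT-Control, and 4 rose and 11 fell in HD-WNT5B against HD-Control. Beside them, 24.5% of all genes rose and 20.7% fell in the first comparison, and 35.8% rose and 41.7% fell in the second. Ndrg1, a substrate of SGK1, fell by 0.85 and by 0.70 in those comparisons, and Nedd4l, a ubiquitin ligase that SGK1 phosphorylates, fell by 0.43 and by 0.19, the last at 0.62 with the length trend removed (all 4 called in limma). Pdpk1, the kinase that activates SGK1, fell by 3.22 in HD-WNT5B against HD-Control (SE 0.08, limma with Benjamini-Hochberg adjusted p = 1.8e-09). Txn1, the thioredoxin that TXNIP binds, rose by 2.09 in HD-WNT5B against HD-Control (limma adjusted p = 4.9e-08), and Mlxip, the glucose-sensing factor MondoA that drives Txnip, fell by 2.48 there and rose by 0.81 in HD-Control against WT-Control (limma adjusted p = 8.6e-08 and 4.9e-04). Erbb4, a receptor of the family that MIG6 inhibits, fell by 0.75 in HD-Control against WT-Control and by 1.21 in HD-WNT5B against HD-Control (limma adjusted p = 3.3e-04 and 3.8e-06).

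Several of these other genes kept their call in HD-WNT5B against HD-Control with the length trend removed but at another size. Their log2 differences were then -0.16 for Per1, -0.26 for Klf13, -0.31 for Erbb4, -0.44 for Ndrg1, -0.58 for Nrip1, -0.65 for Cdkn1a, -1.62 for Ncoa2, 0.72 for Txn1, 0.78 for Hspa4, 0.85 for Mt1, 1.56 for Smarca4 and 1.63 for Pomc. Sult1a1 was then at 2.06, Bag1 at 2.85, Crh at 2.87 and Fkbp2 at 3.20. Hsd11b1 was at -0.78 and was called lower there.

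The genes with the pattern most like that of Fkbp5, by Pearson's r of log2 values over the 9 libraries, were Galnt15 (0.9995), Etnppl (0.9991), Retnlg (0.9984) and Pkp2 (0.9983). Those most like Sgk1 were Eftud2 (0.9974), Tpst2 (0.9938), Kdm6b (0.9934) and Ets2 (0.9933), and those most like Txnip were Ccdc6 (0.9979), Frmpd1 (0.9969), Fam76a (0.9952) and Cabin1 (0.9949). The 9 libraries fall into 3 groups, so r mostly ranks the group means, and 43, 12 and 17 genes had r above 0.99 with Fkbp5, Sgk1 and Txnip. Etnppl, for one, averaged 11110 in HD-WNT5B, 6966 in HD-Control and 2020 in WT-Control libraries, an order shared with Fkbp5.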

How the data were processed

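The authors deposited signal values, a decimal number for each protein-coding gene in each library, and by their spacing they are estimated reads divided by 1 factor per library (97.2 to 98.81% of values under 30 reads lie on whole steps, tolerance 0.01). Per the submitters' processing notes the tools include STAR and the build mm10; the counting program and annotation, like all versions, were not given in the sources used here. Identifiers were matched to GENCODE M21. Log2 of the value plus 3, for genes with at least 10 in at least 3 libraries, was fitted in R 4.3.3 with limma 3.58.1 (variance trend, group means over all 9 libraries, 6 residual degrees of freedom), with Benjamini-Hochberg adjustment over 15411 genes in each of 3 comparisons. Fold changes on this scale understate the change of low genes. The script was tested on simulated data. Members and lists were chosen with earlier results of these data known. The text names the 10 genes, Nr3c1, Nr3c2, Hsd11b1, Fkbp4, Per1, Wnt5b, and up to 4 genes per list with the smallest p in HD-Control against WT-Control and up to 4 in HD-WNT5B against HD-Control. A few genes that this rule or the marker lists select are not reported here. Alternatives covered scaling, filter, pseudocount, spread, pairing and left-out libraries. The transcript length trend (a spline with 5 degrees of freedom per library, on the longest transcript) was removed in an alternative chosen after seeing the data.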

Additional observations from a re-analysis of the deposited data

How the results depend on the processing

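The genes called in HD-Control against WT-Control numbered 6957, but 12779 with a weight per group and 12858 with only the 2 groups fitted; leaving out single libraries gave 5421 to 8949. Total counts called over all genes in the other comparisons, and over the 10 genes and 36 other targets in all 3, stayed within 1.5 times under each setting run. Splits by direction moved more: of the 10 genes, 2 were lower in HD-WNT5B against WT-Control as reported, 4 at equal totals and 1 with the length trend removed. A replicate block gave 6402 genes called in HD-Control against WT-Control, 11782 in HD-WNT5B against HD-Control and 11891 in HD-WNT5B against WT-Control; same-numbered libraries did not deviate together (correlations -0.078 to 0.021), so the numbers do not pair the samples. The count model on recovered reads was not run, because too few low values came out whole. Log2 differences that reversed follow for the 10 genes and those named by rule, and the causes were not tested. With every library at the same total, HD-WNT5B against HD-Control gave -0.0055 for Fkbp5 and -0.16 for Hspa4, and HD-WNT5B against WT-Control gave -0.13 for Sgk1, -0.48 for Klf15, -0.0307 for Zbtb16 and -0.35 for Smarca4. With the length trend removed, HD-Control against WT-Control gave 0.023 for Pdpk1; HD-WNT5B against HD-Control gave 0.0256 for Gmeb1, 0.36 for Plin4 and 0.62 for Nedd4l; and HD-WNT5B against WT-Control gave 0.029 for Klf9, -0.0678 for Klf15, 0.0807 for Hspa4, 0.65 for Gmeb1, 0.25 for Klf13 and 0.23 for Nedd4l. With single libraries left out, HD-WNT5B against HD-Control ran from -0.6184 to 0.0116 for Hsd11b1 (reversed without HD-WNT5B replicate 3), -0.3582 to 0.0556 for Srd5a1 (without HD-WNT5B replicate 3) and -0.3144 to 0.2482 for Icam1 (without HD-Control replicate 2 or HD-WNT5B replicate 1), and HD-WNT5B against WT-Control ran from -0.0072 to 0.3112 for Klf15 (without HD-WNT5B replicate 1 or 2). Of the other values for single genes, 3205 kept direction and call, 42 lost a call and 68 gained one. The shallower, more scattered HD-WNT5B libraries limit what can be read of low genes there.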
